A study of Phyllostachys edulis with 2 samples.

Results

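Cytochrome P450s and glycosyltransferases were examined in underground rhizome lateral buds of Moso bamboo (Phyllostachys edulis), a fast growing woody grass. Wild type buds were sequenced at the early shoot stage and, earlier in development, at the germination stage. RNA of pooled buds gave 1 library per stage, so differences could not be checked in replicates and p-values were not computed. Reads had been counted on 148492 assembled transcripts of 85391 loci, with 7878826 reads in early shoot and 4481221 in germination.

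Members were the transcripts whose best protein match is described as a P450, a glucosyltransferase, a glycosyltransferase, a UDP-glycosyltransferase or a glucuronosyltransferase. Descriptions of xyloglucan, glucan synthase, cellulose, sucrose, disproportionating and starch enzymes were left out. This gave 48 transcripts of 27 loci, of which 13 transcripts of 7 loci name a P450 and 35 transcripts of 20 loci a glycosyltransferase. The member transcripts were 166 to 5393 bp long, and 20 of the 48 were shorter than 500 bp. Reads of the matching transcripts were summed per locus. Separate loci can be pieces of 1 gene, since 5 protein matches were shared between loci, 10 loci in all.

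P450s are heme enzymes that insert oxygen into hormones, phenolics, lipids and foreign compounds, with electrons passed on by a reductase. Family 1 type glycosyltransferases, here UGTs, transfer a sugar from a UDP-sugar to such small molecules, which commonly makes them more soluble and less active. Other glycosyltransferases build the glycans of proteins, membrane sterols and the cell wall. In plants both groups include enzymes that act on abscisic acid, gibberellin and other hormones of bud dormancy and growth.

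The abscisic acid 8'-hydroxylases, the P450s of the CYP707A family that open the main route of abscisic acid breakdown, were lower in early shoot. Their 6 transcripts of 3 loci held 235 reads in early shoot and 644 in germination. After the early shoot counts were divided by 1.8, the median of the count ratios between the libraries, this was a log2 ratio of -2.30 (95% Clopper-Pearson interval from -2.52 to -2.08), or 4.93-fold lower. Intervals here cover counting error only, not variation between buds, and they treat every read as independent. Reads amplified by PCR are not independent molecules, and transcripts of a locus may share reads. The intervals can therefore be too narrow even for counting error. In pooled tissue, fewer cells of a type and less RNA per cell cannot be told apart.

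Locus_10266, matched to ABA 8'-hydroxylase 1 of rice, carried most of these reads. It had 187 reads in early shoot and 547 in germination, a 5.27-fold lower level (interval from 4.45 to 6.25). Its 3 transcripts had 9.46, 2.55 and 9.25 RPKM (reads per kilobase of transcript, scaled to library size) in early shoot, against 43.27, 18.44 and 49.19 RPKM in germination. Each transcript was lower in early shoot, though transcripts of a locus may share reads and are not replicates.
Locus_12445 has the same rice protein as best match, so it may be a second copy or a piece of the same gene. It had 42 reads in early shoot and 93 in germination, 3.99-fold lower (interval from 2.74 to 5.88), and both of its transcripts had 2.92 RPKM in early shoot, against 12.47 and 10.27 RPKM in germination. Both loci with this match were therefore lower in early shoot. The locus matched to ABA 8'-hydroxylase 3, Locus_78340, had 6 reads in early shoot and 4 in germination, too few to detect a difference.

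**Figure D1:**
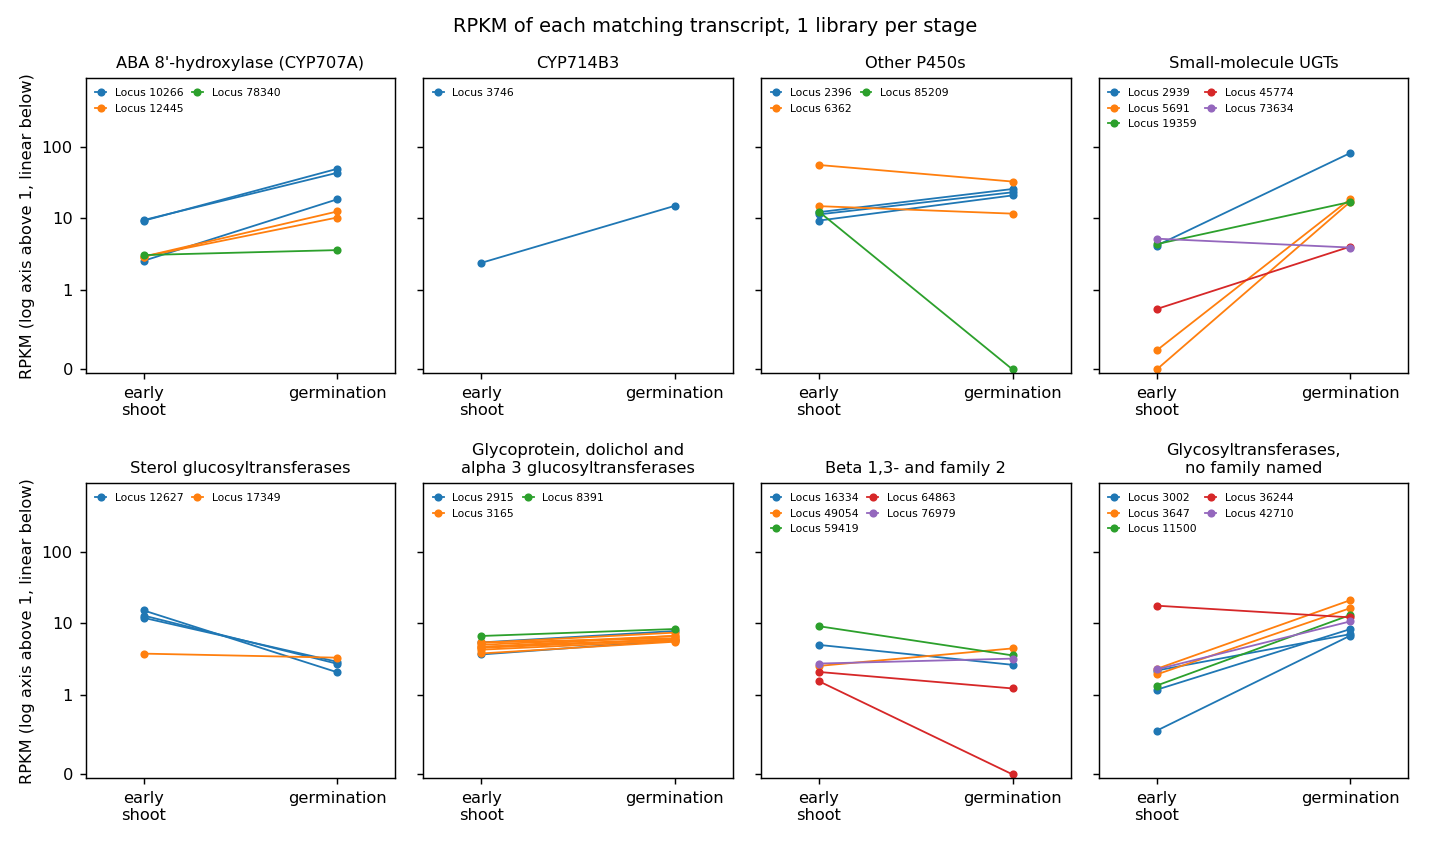
Deposited RPKM of each matching transcript in early shoot (left point) and germination (right point), 1 line per transcript, coloured by locus within each panel of related descriptions, with 1 library per stage and a vertical axis that is logarithmic above 1 and linear below. Lines of the ABA 8'-hydroxylase loci Locus_10266 and Locus_12445 climb toward germination, whereas the 3 lines of sterol glucosyltransferase Locus_12627 descend, with 11.93 to 15.14 RPKM in early shoot and 2.07 to 2.90 RPKM in germination.

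CYP714B3 names a P450 of a family whose rice members oxidise gibberellins. Its only matching transcript, in Locus_3746, had 18 reads (2.39 RPKM) in early shoot and 64 reads (14.97 RPKM) in germination, 6.40-fold lower (interval from 3.75 to 11.48). The second transcript of the locus, matched to a predicted barley protein, had 31 reads in early shoot and 123 in germination. With both transcripts the log2 ratio was -2.78 (interval from -3.26 to -2.32), close to the -2.68 of the matching transcript alone.

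The remaining P450s name no reaction, and they went both ways. Locus_2396, described as a P450 family protein of rice, was lower in early shoot, with 689 reads against 832 in germination, 2.17-fold (interval from 1.96 to 2.41). Its 3 matching transcripts had 9.31 to 12.21 RPKM in early shoot and 20.91 to 25.70 RPKM in germination.
Locus_6362, matched to P450s of the ryegrass Lolium rigidum, was the most abundant P450 locus in early shoot. It had 975 reads in early shoot and 336 in germination, 1.61-fold higher (interval from 1.42 to 1.83). One matching transcript had 55.63 RPKM in early shoot, the highest of all members there, and 32.64 RPKM in germination. The other had 14.80 RPKM in early shoot and 11.63 RPKM in germination. Locus_85209, described as P450 of Brachypodium distachyon, had 20 reads in early shoot and 0 in germination, at least 3.70-fold higher when the germination library is set to a floor of 3 reads, while the counting interval used for the other loci starts at 2.74-fold for this one. This locus is a single fragment, and its 12.38 RPKM in early shoot rest on those 20 reads.

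Over all P450 members, 1937 reads were counted in early shoot and 1876 in germination, a log2 ratio of -0.80 (interval from -0.89 to -0.71). The sum mixes the higher Locus_6362 with the lower loci and depends on which transcripts are summed. With every transcript of these 7 loci, whatever its description, there were 4218 reads in early shoot and 2988 in germination, a log2 ratio of -0.35 (interval from -0.42 to -0.28). Most of the added reads came from 3 transcripts of Locus_6362 without a P450 description, as the whole locus had 3026 reads in early shoot and 1053 in germination.

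Among the UGTs of small molecules, the locus matched to HvUGT13248 was nearly absent from early shoot. In barley this enzyme attaches glucose to the Fusarium toxin deoxynivalenol. Locus_5691 had 1 read in early shoot and 77 in germination, a log2 ratio of -7.11 with a wide interval from -12.44 to -4.59. Its 2 transcripts had 0.24 and 0.00 RPKM in early shoot, against 18.70 and 17.04 RPKM in germination. Another barley match, HvUGT5876 in Locus_45774, had only 1 read in early shoot and 3 in germination. Both barley matches together had 2 reads in early shoot and 80 in germination.
The UDP-glycosyltransferase matched to oat (Avena strigosa), Locus_2939, had the highest RPKM of all member transcripts in germination. It had 17 reads (4.17 RPKM) in early shoot and 190 reads (81.85 RPKM) in germination, 20.1-fold lower (interval from 12.2 to 35.3). The second transcript of this locus has no protein match and stood alike, with 20 reads in early shoot and 234 in germination. Hydroquinone glucosyltransferase, named for the plant enzyme that makes arbutin, had 14 reads in early shoot and 31 in germination in Locus_19359, a log2 ratio of -1.99 (interval from -3.02 to -1.04). The other locus of that name, Locus_73634, had 7 reads in early shoot and 3 in germination, and for both the log2 ratio was -1.54 (interval from -2.40 to -0.72).

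Sterol glucosyltransferase, which attaches glucose to membrane sterols, was the only family with a locus called higher in early shoot by the rule given further on. Locus_12627 had 389 reads in early shoot and 43 in germination on 3 matching transcripts, 5.03-fold higher (interval from 3.66 to 7.06). These transcripts had 11.93, 12.83 and 15.14 RPKM in early shoot, against 2.90, 2.72 and 2.07 RPKM in germination, each of them higher in early shoot. With all 12 transcripts of the locus there were 1391 reads in early shoot and 210 in germination, a log2 ratio of 1.88 (interval from 1.67 to 2.10). The other sterol glucosyltransferase, Locus_17349, had 12 reads in early shoot and 6 in germination, which gave the family 401 reads in early shoot and 49 in germination.

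**Figure D2:**
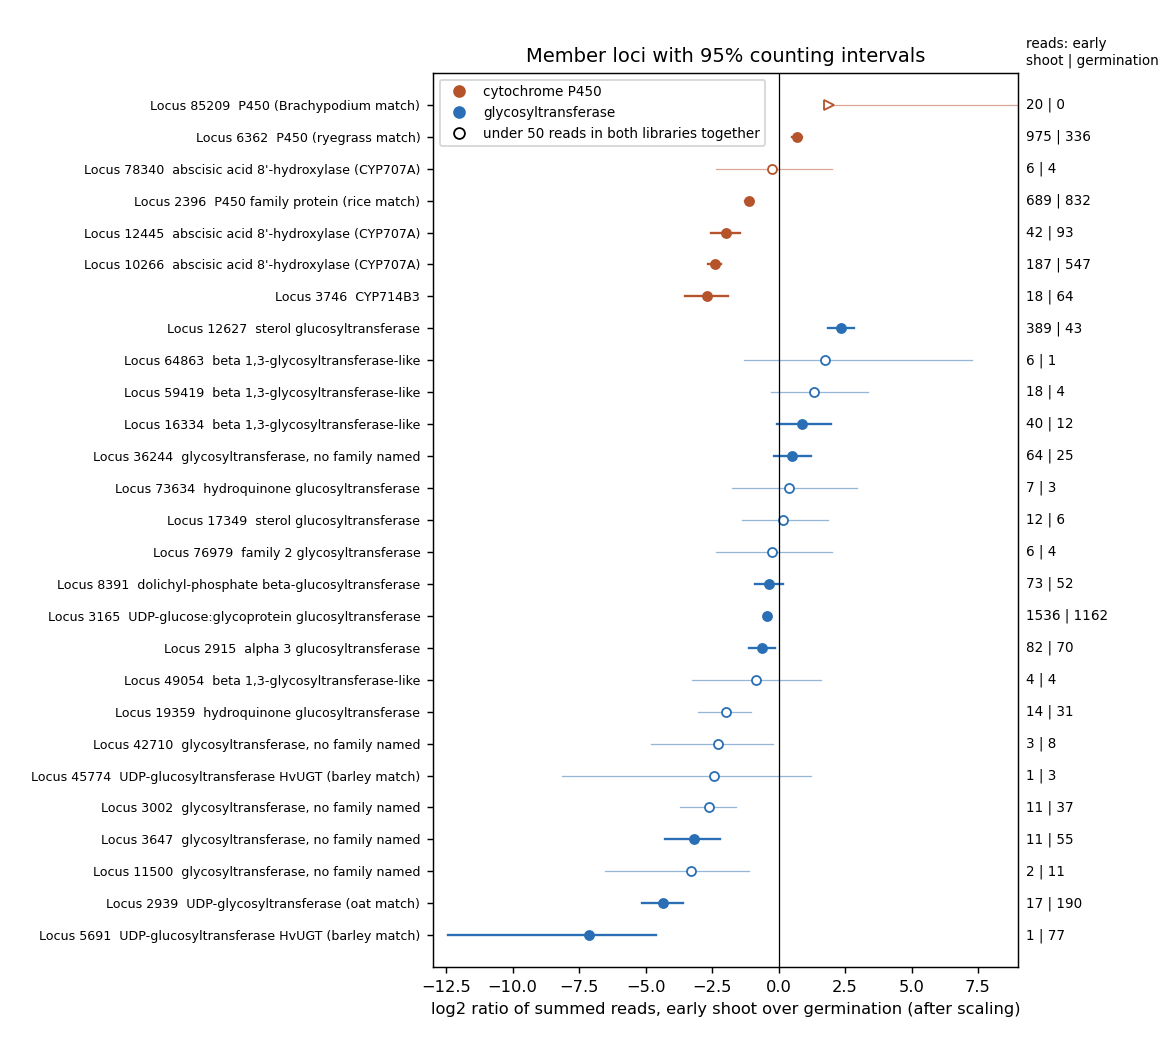
Log2 ratio of summed reads, early shoot over germination, for the 27 member loci, with P450s in orange above glycosyltransferases in blue, bars for 95% counting intervals, open symbols for loci under 50 reads, and the reads of early shoot and germination at the right. The triangle marks the bound of Locus_85209, at least 3.70-fold higher against a floor of 3 reads, since it had 0 reads in germination, and its line is not an interval. Intervals of the ABA 8'-hydroxylase loci Locus_10266 and Locus_12445 lie below 0, and that of sterol glucosyltransferase Locus_12627 lies above it.

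The matching transcripts of glucosyltransferases of protein glycosylation had log2 ratios per locus from -0.62 to -0.36. UDP-glucose:glycoprotein glucosyltransferase, the folding sensor of the endoplasmic reticulum that adds glucose back to misfolded glycoproteins, had 1536 reads in early shoot and 1162 in germination on 8 long transcripts of Locus_3165. This was 1.36-fold lower (interval from 1.26 to 1.47), with 3.79 to 5.40 RPKM in early shoot and 5.53 to 7.41 RPKM in germination. The dolichyl-phosphate beta-glucosyltransferase, which makes the lipid-linked glucose donor of N-glycan assembly, had 73 reads in early shoot and 52 in germination in Locus_8391, a log2 ratio of -0.36 (interval from -0.89 to 0.18). Its counting interval spans both directions.
For the alpha 3 glucosyltransferase of Locus_2915, there were 82 reads in early shoot and 70 in germination on 2 matching transcripts, a log2 ratio of -0.62 (interval from -1.10 to -0.14). The other 4 transcripts of that locus match hypothetical proteins, and their log2 ratios with 1 read added ran from -2.01 to -0.08. The lowest of them, 870 bp long, had 32 reads in early shoot and 73 in germination, and summing all 6 transcripts gave -1.09 (from -1.37 to -0.80).

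Beta 1,3-glycosyltransferase-like proteins, named on 5 transcripts of 4 loci, had 68 reads in early shoot and 21 in germination, a log2 ratio of 0.85 (interval from 0.12 to 1.63). Of these, Locus_16334 was the only locus above 50 reads, with 40 in early shoot and 12 in germination and an interval from -0.07 to 1.96. All transcripts of Locus_16334 had 202 reads in early shoot and 92 in germination, a smaller log2 ratio of 0.29 (from -0.08 to 0.66). The family 2 glycosyltransferase, Locus_76979, had 6 reads in early shoot and 4 in germination.
Glycosyltransferases of sorghum or maize with no family named made up 8 transcripts of 5 loci, with 91 reads in early shoot and 136 in germination (log2 ratio -1.43, interval from -1.83 to -1.03). Locus_3647 was lower in early shoot, with 11 reads against 55 in germination, a log2 ratio of -3.17 (interval from -4.25 to -2.22). The next 3 loci of the group, with 2 to 11 reads in early shoot and 8 to 37 in germination, had log2 ratios from -3.31 to -2.26. Locus_36244 stood apart from these, with 64 reads in early shoot and 25 in germination and a log2 ratio of 0.51 (interval from -0.18 to 1.24).
Over all glycosyltransferase members there were 2297 reads in early shoot and 1798 in germination, a log2 ratio of -0.49 (interval from -0.58 to -0.40). Locus_3165 alone held 66.9% of these reads in early shoot and 64.6% in germination, so the sum mainly follows this enzyme.

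To count differences with 1 rule, a G-fold value was computed per locus, which is the 0.01 quantile nearest 0 of the log2 ratio that counting error allows, or 0 where counting error allows either direction. A locus whose reads of both libraries came to 50 or more was called when this value lay beyond 1.0. Of the 27 member loci 14 reached 50 reads. In these, 1 was called higher in early shoot, while 5.01% of the 18683 loci of the tables with as many reads were called higher. Called lower in early shoot were 6 of the 14, against 10.2% of all loci. Here and below, all loci are summed over every transcript, whereas member and partner loci are summed over matching transcripts only. With every transcript summed, 1 of the 14 member loci was called higher and 7 lower. These counts are a description only, because 5 of the 6 lower loci had 50 reads in germination alone and the higher locus had them in early shoot alone, and such loci entered the count through the library where they are high. Of the 6 loci with 50 reads in each library, 1 was called lower, Locus_10266, and 0 higher. The share called among all loci with 50 reads in each library was not computed, so this count has no comparison. The 7 called loci were sterol glucosyltransferase Locus_12627, the higher one, and Locus_5691, Locus_2939, Locus_10266, Locus_3647, Locus_3746 and Locus_12445. By class, 3 of 5 P450 loci and 3 of 9 glycosyltransferase loci were called lower. The P450 loci called include both with the same rice match.
With 1 read added to both counts, the median of the log2 ratios was -1.98 over the 5 P450 loci and -0.45 over the 9 glycosyltransferase loci, compared with 0.07 over all loci with as many reads. With every transcript of the member loci summed, as for all loci, the medians were -1.98 for P450s and -0.43 for glycosyltransferases. The P450 median is the value of Locus_12445, which reached 50 reads in germination alone. These medians too are a description only, because both classes include loci that entered through the library where they are high.
Nearest to the threshold among called loci were Locus_12445 with a G-fold value of -1.38 and Locus_3746 with -1.80 on the lower side, and Locus_12627 with 1.80 on the higher side. Among loci not called, Locus_2396 had -0.95 and Locus_3165 had -0.31 on the lower side, and Locus_6362 had 0.48 on the higher side. With every transcript of the locus, Locus_2396 reached -1.01 and was called too. The 13 loci under 50 reads had at most 20 reads in early shoot and 37 in germination, and in 8 of them the counting interval held 0, so no difference was detectable in these at this depth.

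Counted by transcript, with RPKM above 1.0 in both libraries, 42 of 48 members could be called. In these, 3 were called higher in early shoot and 8 lower, whereas 1.4% and 3.77% of all 120465 transcripts above the cutoff were called higher and lower. These shares are not of like transcripts, as the median length was 834 bp in members and 329 bp in all transcripts. With at least 100 reads, 2 of 19 members were called higher and 3 lower, against 4.29% and 7.74% of all transcripts. The 3 higher ones at the RPKM cutoff were all of Locus_12627. The 8 lower ones were of Locus_10266, Locus_3647, Locus_2939, Locus_3746 and Locus_12445, and transcripts of a locus are not independent. Both HvUGT13248 transcripts and the Brachypodium P450 failed the cutoff because they are at or near 0 in one library.

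Matching transcripts of 1 locus kept to the same side. Of the 11 member loci with several matching transcripts 9 had at least 50 reads, and in all 9 every matching transcript lay on 1 side of 0, with log2 ratios (1 read added) that spread over 0.12 to 0.78 within a locus. The sources used here do not give how a read that fits several transcripts of a locus was assigned. A further 38 transcripts of 11 member loci carry another description or none. In Locus_12627 those with at least 20 reads lay from 0.91 to 2.42, below the highest matching transcript at 2.73. Other transcripts did not always keep to the side of the matching ones. In Locus_16334 those with at least 20 reads lay from -0.29 to 0.77, beside the matching transcript at 0.81. In Locus_3165 the 3163 bp transcript was at 0.02, beside matching ones from -0.58 to -0.23.

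**Figure D3:**
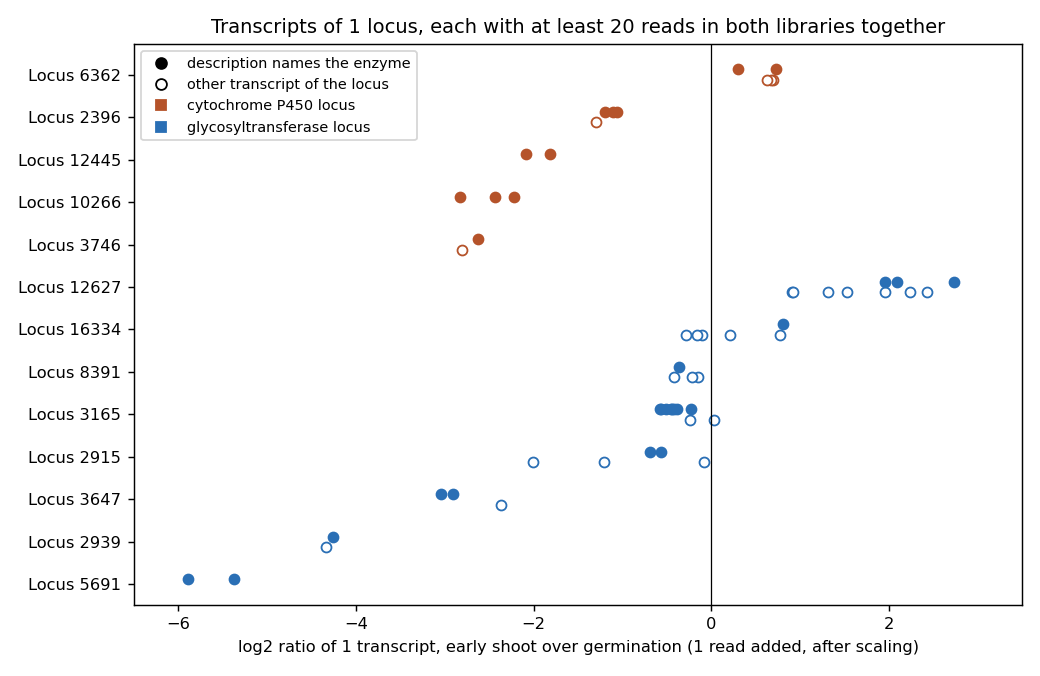
Log2 ratio of single transcripts, early shoot over germination with 1 read added, for member loci with several transcripts of at least 20 reads. Filled points are transcripts whose description names the enzyme, open points are other transcripts of the same locus, and colour separates P450 from glycosyltransferase loci. Filled points of sterol glucosyltransferase Locus_12627 lie from 1.95 to 2.73 and those of ABA 8'-hydroxylase Locus_10266 from -2.83 to -2.22.

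Partners of these enzymes were searched by description. No description named a P450 reductase, and the only match for the electron carrier cytochrome b5 was a cytochrome b561, a different ascorbate-linked protein, so the electron supply was not analysed here. Among P450s described by reaction alone, cinnamate 4-hydroxylase, which opens the phenylpropanoid pathway after phenylalanine ammonia-lyase, had 5 reads in early shoot and 177 in germination in Locus_4581, a log2 ratio of -5.99 (interval from -7.63 to -4.74). The ferulate 5-hydroxylase of lignin synthesis, Locus_34593, had 22 reads in early shoot and 21 in germination and an interval from -1.71 to 0.15.
Glutathione transferases, which conjugate foreign compounds much as UGTs do, were represented by 8 loci, of which 4 reached 50 reads. Of these 1 was called higher in early shoot and 0 lower, where 5.01% of all loci were called higher and 10.2% lower. The higher one, Locus_83811, had 50 reads in early shoot and 3 in germination, so it reached the minimum through early shoot, where it was high. The most abundant of them, Locus_4795, had 2305 reads in early shoot and 1231 in germination, a log2 ratio of 0.06 (interval from -0.04 to 0.16). Others lay the other way, with 70 reads in early shoot and 108 in germination for Locus_26585 (log2 ratio -1.47, from -1.93 to -1.03) and 0 reads in early shoot and 10 in germination for Locus_45870.
Of 22 exporter loci (ABC and multidrug resistance transporters) 11 reached 50 reads, with a median log2 ratio (1 read added) of 0.28. In these, 0 were called in either direction, where 5.01% of all loci were called higher and 10.2% lower.
The search for beta-glucosidases, which remove glucose from such conjugates, found 7 loci, of which 5 reached 50 reads and 2 were called lower in early shoot, where 10.2% of all loci were called lower. Both called loci are glucan endo-1,3-beta-glucosidases, which cut callose and other glucans and not glucosides of small molecules. Rice Bglu1-type beta-glucosidase, Locus_5726, had 1096 reads in early shoot and 547 in germination (log2 ratio 0.15, from 0.01 to 0.31). The log2 ratio was 1.31 for Locus_19623, a beta-mannosidase/beta-glucosidase, and -0.76 for Locus_10496, a putative beta-glucosidase.
Enzymes of UDP-sugar supply had 3 loci and no call, where 5.01% of all loci were called higher and 10.2% lower. UDP-glucose pyrophosphorylase, which makes the sugar donor of the UGTs, had 2657 reads in early shoot and 1230 in germination in Locus_4027, a log2 ratio of 0.26 (interval from 0.17 to 0.36). UDP-glucuronic acid decarboxylase, which makes UDP-xylose, lay the other way in Locus_4024, with 23 reads in early shoot and 38 in germination (log2 ratio -1.57, from -2.39 to -0.79).

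**Figure D4:**
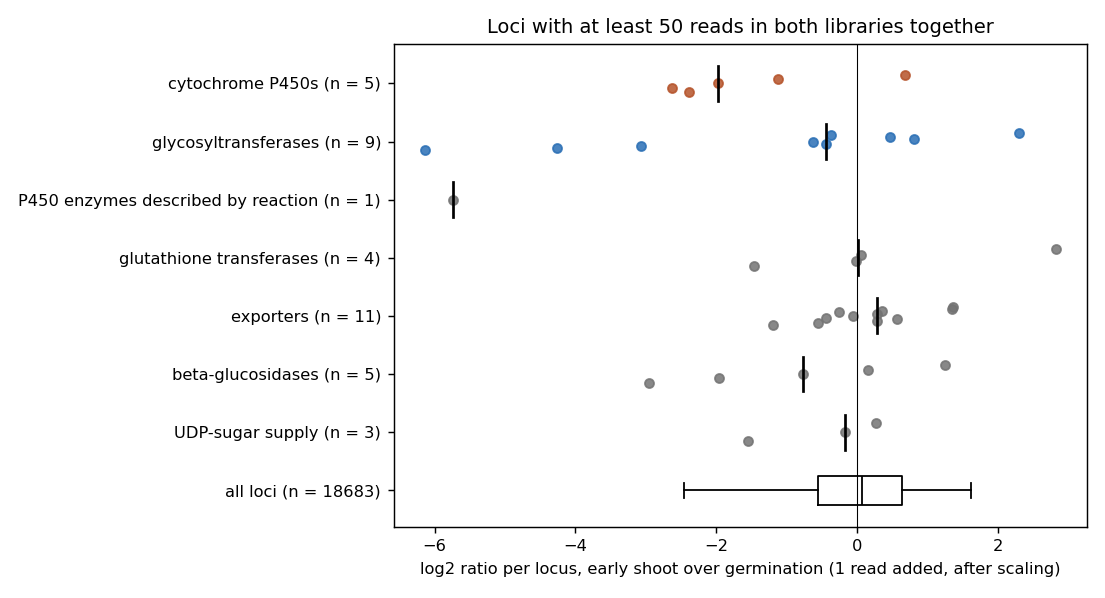
Log2 ratio per locus, early shoot over germination with 1 read added, for loci with at least 50 reads in the member classes and in the partner lists, with black ticks at the medians. The box spans the 25th to 75th percentile of all 18683 loci and its whiskers the 5th to 95th (-2.46 to 1.62). The 18683 loci are summed over every transcript, and member and partner loci over matching transcripts only. P450 loci have a median of -1.98, glycosyltransferases of -0.45 and exporters of 0.28. Loci that reached 50 reads only through the library where they are high are included.

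As a check of the tissue, knotted-type homeobox proteins, some of which mark shoot meristems, were found in both libraries. The KNOTTED1 locus, Locus_8419, had 943 reads in early shoot and 283 in germination, a log2 ratio of 0.89 (interval from 0.70 to 1.09). Locus_7843, described as knotted-1-like 2, had 538 in early shoot and 613 in germination (-1.04, from -1.21 to -0.87). For Locus_6564, described as knotted-1-like 13, the log2 ratio was -0.52 (from -0.74 to -0.30). Whether Locus_7843 and Locus_6564 mark meristem cells was not tested. Cyclin-B2-1 of dividing cells had 227 reads in early shoot and 18 in germination in Locus_54302, a log2 ratio of 2.81 (interval from 2.12 to 3.59). This locus reached 50 reads in early shoot alone. Of the 6 loci on the meristem and division list, 2 are cyclin-dependent kinases and not cyclins. In this list 1 was called higher and 0 lower, where 5.01% of all loci were called higher and 10.2% lower. Summed reads before scaling were 2288 in early shoot and 1317 in germination, and the median log2 ratio (1 read added) was 0.07. No description named histone H4. Photosystem, chlorophyll-binding and ribulose bisphosphate carboxylase descriptions, listed for green leaf tissue, had 4106 reads in early shoot and 2542 in germination on 12 loci, before scaling. Locus_18, matched to photosystem I proteins, held most of them, with 2866 in early shoot and 1881 in germination. The sum mainly follows that locus and is not a measure of leaf tissue. The 4 loci that reached 50 reads had log2 ratios from -0.24 to 0.21, and 0 were called, beside the same shares of all loci. Among them, Locus_16124 and Locus_2808 had proteins of Arabidopsis thaliana and not of a grass as best match. Whether any of the 4 marks green tissue of these buds was not tested. The part of cell makeup in the differences of P450s and glycosyltransferases was not tested.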

How the data were processed

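RNA-seq of 2 pooled bud samples was analysed, 1 library per stage. The authors deposited raw read counts per transcript without normalization, and an RPKM that the deposited tables scale by transcript length and table total (recalculated to within 0.0483). The submitters' processing notes name TopHat2 2.0.8b and Cufflinks 2.2.1. The methods of the study describe unique TopHat mapping, Cufflinks gene models of another version and a search of Trinity proteins against rice. The deposited tables instead carry assembled transcript names and matches to many species, and how these were assembled, searched and counted is not given in the sources used here.

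Python 3.11.15 was used with NumPy 2.4.6 and pandas 2.3.3. SciPy 1.17.1 gave Clopper-Pearson intervals and the G-fold value, a beta quantile of 0.01 with 1 read added to each count, which is modelled on the program Gfold and does not repeat it. It was tested on counts simulated from the Poisson model that it assumes, without variation between buds. Such a test cannot show how it performs on real libraries. Reads of matching transcripts were summed per locus without added reads. Scalings compared were the median ratio (1.8), the upper quartile (1.64), TMM from edgeR 4.0.16 in R 4.3.3 (1.76), table totals (1.76) and those totals after removal of the 10 most abundant transcripts (1.76). Also tried were a quantile of 0.05, a plain ratio, a threshold of 2.0, no minimum or 100 reads, thinning of the early shoot library, and other sums per locus.

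The members, lists and tests were chosen with earlier results of these data known. The text names every family, up to 12 called loci in each direction, the 10 loci with most reads, loci with a named reaction and at least 50 reads, and the 2 nearest the threshold on each side. Other member loci and partner loci were named after their values were seen.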

Additional observations from a re-analysis of the deposited data

How the results depend on the processing

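No paired analysis was possible because each stage has 1 library. The 4 other scalings raised log2 ratios by 0.03 to 0.14 and changed the call of 0 of the 14 loci with at least 50 reads. The log2 ratios of the summed reads stayed below 0 under every alternative run, but their size depended on the sum. For P450s the log2 ratio was -0.66 with the upper quartile, -0.35 with every transcript of the locus, -0.43 with the most abundant matching transcript and -0.59 without Locus_2396, the locus with the most reads. For glycosyltransferases it was -0.36, -0.30, -0.80 and -0.59 under the same alternatives in this order, the last without Locus_3165, and -1.03 with summed RPKM. Single families and loci under the scalings gave 112 values, of which 110 stayed within the main interval, the other 2 being the family and the locus of Locus_3165 (-0.31 with the upper quartile). Each scaling shifts every log2 ratio by the same amount, so intervals wider than the shift hold the value by construction. A family of 1 locus also repeats that locus, so this count does not measure robustness. At a threshold of 2.0, 0 loci were called higher in early shoot and 4 lower (0.599% and 4.52% of all loci), and 0 transcripts higher and 3 lower (0.11% and 1.16% of all transcripts). Without a minimum 2 of 27 loci were called higher (1.31% of all loci), Locus_85209 being added, and 7 lower (4.85% of all loci). With at least 100 reads, 3 of 9 loci (10.3% of all loci) and 3 of 19 transcripts (7.74% of all transcripts) were called lower. Called higher at that minimum were 1 locus (5.9% of all loci) and 2 transcripts (4.29% of all transcripts). The plain log2 ratio called 17 of 42 transcripts lower (17.2% of all transcripts) and 4 higher (10.8% of all transcripts). Depth limits the 13 loci under 50 reads, and with 1 library per stage variation between buds was not measured.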
